A study of Mus musculus with 12 samples.

Results

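The NADPH oxidase of phagocytes makes superoxide, and the genes described here encode 6 proteins of that system in eosinophils: Cybb, Cyba, Ncf1, Ncf4, Rac2 and Hvcn1. They were taken by symbol from a table of 53801 genes, all 6 were found in it, and all 6 passed the filter on low counts in each of the 5 comparisons. RNA came from eosinophils of bone marrow and blood of Atg5-knockout and control mice, in 12 libraries that form 4 groups of 3. The Atg5-knockout mice were Atg5flox/flox eoCre Il5tg, and the control mice were eoCre Il5tg with unfloxed Atg5. Every animal therefore carried the Il5 transgene, which is driven by the Cd3d promoter and raises eosinophil numbers, and one copy of the Cre recombinase knocked into the eosinophil peroxidase gene Epx. The mice received no treatment named in the labels, and the age of the RNA-seq animals is not given in the sources used here. Eosinophils were enriched by depleting cells with antibodies to lymphocyte and neutrophil surface proteins, among them CD8α, CD90.2 and Ly6G, and blood first went through a density gradient and lysis of erythrocytes in water, so that tissue and isolation procedure cannot be told apart.

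In a resting phagocyte the oxidase is disassembled. The products of Cybb (gp91phox, the catalytic subunit that moves electrons from NADPH to oxygen) and Cyba (p22phox, which stabilises it) sit in the membrane as one heterodimer. The products of Ncf1 (p47phox, the organiser) and Ncf4 (p40phox, which binds a phosphoinositide of the phagosome) wait in the cytosol and join on stimulation together with the GTPase Rac2, the Rac protein of blood cells. Hvcn1 is the voltage-gated proton channel that lets protons follow the electrons across the membrane and so keeps the enzyme working. Eosinophils are known for a strong oxidase, and their peroxidase uses the hydrogen peroxide that forms from superoxide to make bromine oxidants.

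Sequences upstream of the transcription start are shown for the genes with an entry in the RefSeq promoter table, since the transcription factors described further on bind motifs of this kind. The table held Cybb, Cyba and Ncf1, and the windows are the 250 bases before each start, 5′ to 3′ on the strand of the gene, on GRCm38.p6. Capitals mark every match on either strand to GAGGAA or GGGGAA, forms of sites for PU.1. They also mark AGATAA or TGATAA, forms of sites for GATA factors. The shorter core GGAA of PU.1 sites was not searched by itself and occurs unmarked in the windows of Cybb and Cyba. The windows lie at chrX:9469325-9469574, chr8:122432941-122433190 and chr5:134229626-134229875, all on the minus strand. The RefSeq start used for Cybb lies 18447 bases inside the gene as the count table spans it, so the Cybb window is not upstream of that longer span. The windows of Cyba and Ncf1 lie outside the spans counted.
Cybb: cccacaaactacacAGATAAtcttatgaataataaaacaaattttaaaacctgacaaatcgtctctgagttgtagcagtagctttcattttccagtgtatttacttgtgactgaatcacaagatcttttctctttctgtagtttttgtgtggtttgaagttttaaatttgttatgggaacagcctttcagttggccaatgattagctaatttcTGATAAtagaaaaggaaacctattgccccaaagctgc
Cyba: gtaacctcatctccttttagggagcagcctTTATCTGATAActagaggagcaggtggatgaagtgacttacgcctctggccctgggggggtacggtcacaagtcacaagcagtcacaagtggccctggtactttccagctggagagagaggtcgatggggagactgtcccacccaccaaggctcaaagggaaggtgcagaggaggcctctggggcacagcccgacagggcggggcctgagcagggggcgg
Ncf1: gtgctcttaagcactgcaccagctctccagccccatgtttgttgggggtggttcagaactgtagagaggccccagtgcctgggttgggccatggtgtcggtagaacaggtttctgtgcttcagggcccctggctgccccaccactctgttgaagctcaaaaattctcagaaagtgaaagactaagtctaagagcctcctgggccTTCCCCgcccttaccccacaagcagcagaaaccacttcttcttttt

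The Cybb window held AGATAA from -236 to -231 and TGATAA from -37 to -32, counted from the base before the start as -1. The Cyba window held AGATAA on the opposite strand from -220 to -215, which shares 1 base with TGATAA from -215 to -210. In the Ncf1 window, GGGGAA was found on the opposite strand from -46 to -41. GAGGAA was in none of the 3. Of 32851 promoter windows of the same length, 23.3% held GAGGAA, 20.3% GGGGAA, 9.99% AGATAA and 7.94% TGATAA. The base composition of the windows differed, with 34.0% G and C in Cybb, 60.0% in Cyba and 54.4% in Ncf1.

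In the count table, on GRCm38, Cybb spans chromosome X from 9435252 to 9487771, Cyba chromosome 8 from 122424776 to 122432930, Ncf1 chromosome 5 from 134220053 to 134229625, Ncf4 chromosome 15 from 78244801 to 78262580, Rac2 chromosome 15 from 78559167 to 78572783 and Hvcn1 chromosome 5 from 122206804 to 122242297. The counts cover all exons of a gene. Hvcn1 shares 1574 of its 3563 exon bases with Tctn1 on the other strand, and Ncf1 shares 408 of 3663 with Gtf2ird2. Reads in shared bases were not assigned to either gene, which makes the levels of Hvcn1 and Ncf1 underestimates. The other 4 genes share no exon base with another gene.

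The libraries held 18885052 to 30270166 counts on genes, and replicates varied beyond counting noise. Atg5 itself had 41.4, 45.4 and 40.5 CPM in control and 30.6, 31.3 and 33.9 CPM in Atg5-knockout bone marrow libraries (log2 fold change -0.44, adjusted p = 0.157). In blood it had 45.3, 58.8 and 40.1 CPM in control and 36.7, 52.5 and 52.4 CPM in Atg5-knockout libraries. These counts sum all exons and do not check the deletion of part of the gene. All 10 eosinophil markers were detected in every group and took 8.04 to 10.2% of the counts in bone marrow and 1.80 to 4.05% in blood. Transcripts of 12 red cell genes made up 14.8% of control blood library 1 and at most 1.44% of any other. Values of the 6 genes in control blood are also given without that library.

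Per length, the order of the 6 genes was the same in all 4 groups. Levels are reads per kilobase of exon, scaled for depth (RPKM), with TMM factors over the 12 libraries, which allow genes of different length to be compared. In control bone marrow eosinophils Cyba stood at 1005 ± 107 RPKM (SD, n = 3), Rac2 at 414 ± 23.1, Ncf1 at 239 ± 18.3, Cybb at 122 ± 13.6, Ncf4 at 84.9 ± 2.58 and Hvcn1 at 32.5 ± 6.52. The libraries of neighbours in this order did not overlap in any group. Among 14712 genes ranked by this level, Cyba was at the top 0.251%, Rac2 at 0.816%, Ncf1 at 1.51%, Cybb at 3.02%, Ncf4 at 4.28% and Hvcn1 at 10.4%.

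In control blood eosinophils Cyba stood at 1537 ± 442 RPKM (SD, n = 3), Rac2 at 623 ± 94.2, Ncf1 at 302 ± 39.3 and Cybb at 169 ± 66.6, and Ncf4 and Hvcn1 followed at 77.0 ± 4.91 and 18.4 ± 4.59. Without library 1 the means of the other 2 libraries were 1792 RPKM for Cyba, 673 for Rac2, 301 for Ncf1, 131 for Cybb, 74.9 for Ncf4 and 19.1 for Hvcn1. Atg5-knockout eosinophils of bone marrow had Cyba, Rac2, Ncf1 and Cybb at 863 ± 88.8, 404 ± 36.6, 263 ± 41.9 and 131 ± 9.40 RPKM, Ncf4 at 99.3 ± 1.08 RPKM and Hvcn1 at 24.8 ± 2.14 RPKM (SD, n = 3). In Atg5-knockout blood the levels were 1446 ± 255 for Cyba, 572 ± 54.3 for Rac2, 321 ± 20.7 for Ncf1, 182 ± 18.5 for Cybb, 83.5 ± 9.45 for Ncf4 and 19.96 ± 6.04 for Hvcn1 (SD, n = 3).

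**Figure D1:**
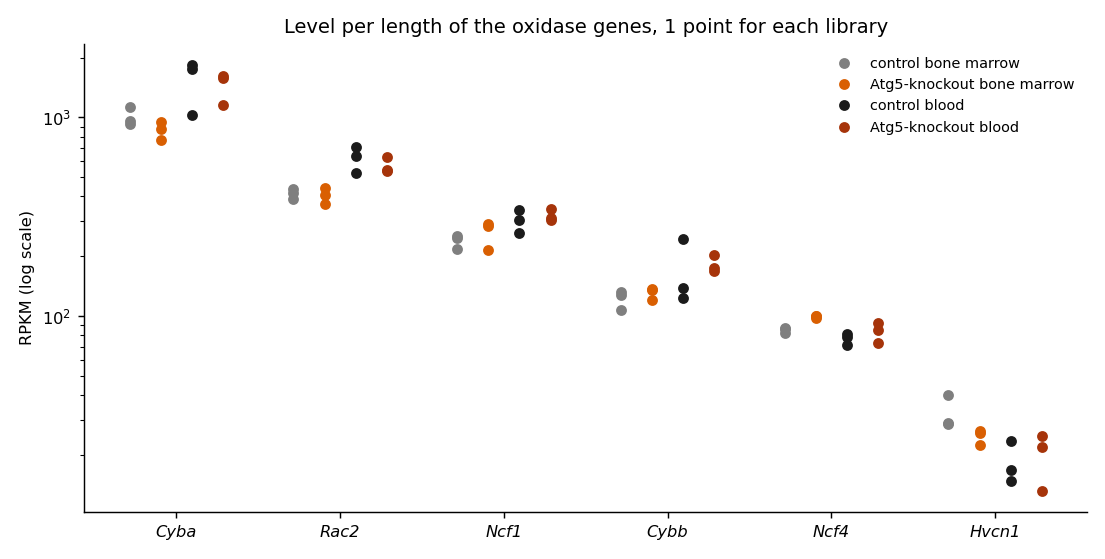
RPKM on a log axis for each of the 6 genes, with 1 point for each of the 12 libraries, coloured by group. Cyba lies at 769.9 RPKM or above, Hvcn1 between 13.2 and 40.1 RPKM, and the points of Rac2 rise from bone marrow to blood while those of Hvcn1 fall in control eosinophils.

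The first comparison asked whether loss of Atg5, a gene needed for autophagosome formation, went with a different level of oxidase transcripts in bone marrow eosinophils. None of the 6 genes passed the threshold, an adjusted p under 0.05, where 0.348% of 13781 genes did. Ncf4 was higher and Hvcn1 lower in every Atg5-knockout library, and the remaining 4 overlapped between genotypes. Libraries of the groups did not overlap for 14.4% of all genes. A further threshold, a log2 fold change beyond 2 in size, was met by none of the 6 in any comparison of groups, where 0.0943% and 0.0371% of all genes met both thresholds between genotypes in bone marrow and blood, and 9.58% and 11.4% between tissues in control and Atg5-knockout eosinophils. The values below are depth-scaled counts (CPM) with TMM factors, in the order of the replicate numbers, and p-values are from edgeR's quasi-likelihood test, adjusted over all genes tested.

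Of the membrane subunits, Cybb had 622, 771 and 742 CPM in control and 696, 794 and 786 CPM in Atg5-knockout bone marrow. The groups overlapped, and the log2 fold change was 0.06 with a 95% interval from -0.19 to 0.32 (adjusted p = 0.900). Cyba had 962, 1170.4 and 999 CPM in control against 984, 800.0 and 905 CPM in Atg5-knockout libraries. Its log2 fold change was -0.25 with an interval from -0.52 to 0.01 (adjusted p = 0.547), and Atg5-knockout library 1 lay within the control range. These intervals reach to a change of about 0.70-fold for Cyba and 1.24-fold for Cybb, and larger shifts of either lie outside them.

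Of the cytosolic subunits, Ncf4 had 165, 175 and 174 CPM in control and 202, 201 and 198 CPM in Atg5-knockout bone marrow. The libraries of each genotype lay close together, with a coefficient of variation of 3.04% in control and 1.09% in Atg5-knockout, and did not overlap. The log2 fold change was 0.20 with a 95% interval from -0.01 to 0.40 (adjusted p = 0.541). Ncf1 had 800.1, 926 and 902 CPM in control and 787, 1044 and 1061 CPM in Atg5-knockout libraries, a log2 fold change of 0.11 with an interval from -0.18 to 0.39 (adjusted p = 0.832). Its Atg5-knockout libraries lay on both sides of the control range.

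Rac2 had 1352, 1296 and 1209.9 CPM in control and 1258, 1136 and 1363 CPM in Atg5-knockout bone marrow, with a log2 fold change of -0.07 and a 95% interval from -0.30 to 0.17 (adjusted p = 0.883). Hvcn1 had 103, 143 and 102 CPM in control and 92.0, 79.6 and 93.6 CPM in Atg5-knockout bone marrow. All Atg5-knockout libraries were below all control libraries, and control library 2 stood far above the other two. The log2 fold change of -0.42 was the largest in size of the 6, with an interval from -0.73 to -0.11 (adjusted p = 0.350). That interval is not adjusted for the number of genes, of which 9.67% had an unadjusted p under 0.05. Without the filter on low counts its adjusted p was 0.0352, the one setting of 14 that took it past the threshold, and without control library 2 the log2 fold change was -0.24. Cycling markers took 0.207 to 0.257% of the counts in Atg5-knockout and 0.185 to 0.200% in control bone marrow libraries, and the red cell share was 0.207 to 0.735% against 0.140 to 0.252%. Their part in the differences of Ncf4 and Hvcn1 was not tested.

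**Figure D2:**
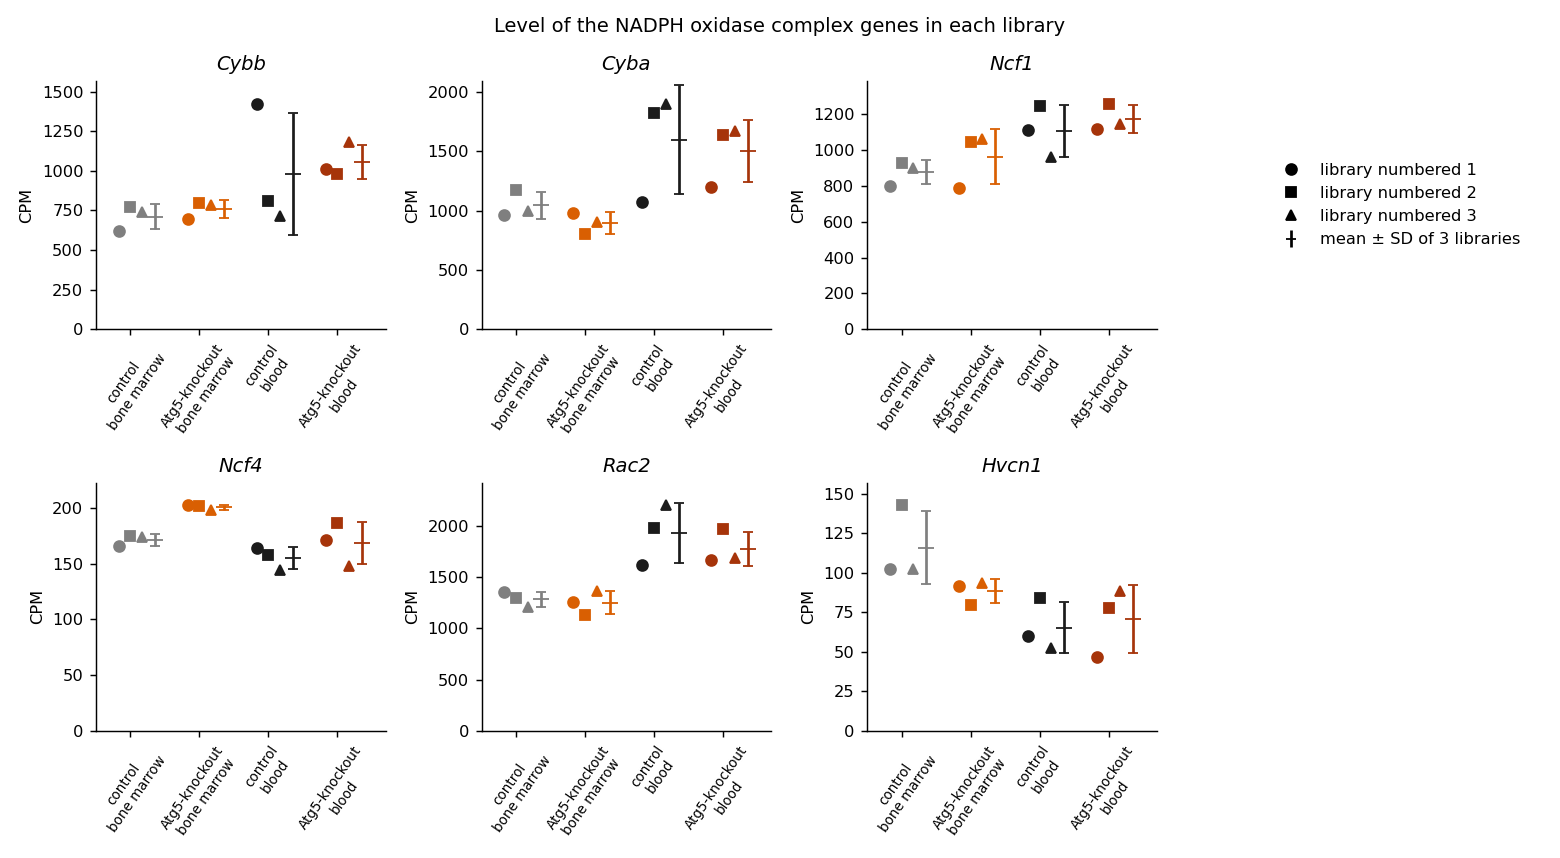
CPM of each gene in each of the 12 libraries, with groups on the horizontal axis, symbols for the replicate number and a bar for the mean ± SD of 3 libraries. Cybb in control blood spans 713 to 1425 CPM, Ncf4 in Atg5-knockout bone marrow 198 to 202 CPM, and the Rac2 libraries of blood stand above those of bone marrow.

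The same question in blood gave no gene of the 6 past the threshold, where 0.0371% of 13460 genes passed it. For none of the 6 were the libraries of the genotypes apart, against 7.58% of all genes. The log2 fold changes ran from -0.11 for Rac2 to 0.14 for Hvcn1, and each adjusted p rounded to 1.0. The intervals were wide. They ran from -0.50 to 0.75 for Cybb, -0.67 to 0.53 for Cyba and -0.32 to 0.53 for Ncf1. Those of Ncf4, Rac2 and Hvcn1 ran from -0.24 to 0.51, -0.55 to 0.34 and -0.49 to 0.77. A rise of 1.5-fold in Cybb or Hvcn1, or a fall of that size in Cyba, lay within these intervals. They are from the fit without pairing, so they do not show what a paired fit would exclude. With the replicate number as a block each of the 6 genes had a smaller standard error, at 0.1306 to 0.2155 against 0.1663 to 0.2769. The log2 fold changes of that block fit were -0.040 for Cyba (standard error 0.1318), 0.19 for Cybb (0.2145) and 0.12 for Hvcn1 (0.2155). The biological coefficient of variation over all genes was 0.365 in blood and 0.146 in bone marrow.

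Cybb had 1425, 808 and 713 CPM in control and 1011, 982 and 1181 CPM in Atg5-knockout blood. Control library 1, the one with red cell transcripts, was the highest of the 6, and the other 2 were the lowest. Without it the log2 fold change was 0.50 in place of 0.13, with an adjusted p no lower than 0.878 over the fits without 1 library. Cyba went the other way among the same libraries, with 1069, 1821 and 1902 CPM in control and 1197, 1639.9 and 1670.2 CPM in Atg5-knockout blood. Library 1 was the lowest in both genotypes, and the libraries of the same number lay near each other.

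Ncf1 had 1113, 1247 and 959 CPM in control and 1116, 1260.3 and 1147 CPM in Atg5-knockout blood, and Ncf4 had 164, 158 and 144 against 172, 186 and 148 CPM. Libraries of the same number deviated together over all genes in blood, and within the 3 number pairs both genes were higher in Atg5-knockout in 3 of 3, by log2 differences of 0.00, 0.02 and 0.26 for Ncf1 and of 0.07, 0.24 and 0.04 for Ncf4. For the other genes the count of pairs higher in Atg5-knockout was 2 for Cybb and 1 each for Cyba, Rac2 and Hvcn1. The share of all genes with 3 of 3 is not given. The fit with the number as a block gave adjusted p-values of 0.878 for Ncf1 and 0.858 for Ncf4. Rac2 had 1623, 1976 and 2203 CPM in control and 1669.8, 1969 and 1685 CPM in Atg5-knockout blood, and Hvcn1 had 59.8, 83.8 and 52.5 against 47.1, 77.7 and 88.6 CPM. Without control library 1 the log2 fold changes in blood were -0.29 for Cyba, 0.11 for Ncf1, 0.17 for Ncf4, -0.22 for Rac2 and 0.080 for Hvcn1, and none was called. In the block fit 10 genes of the whole table passed the threshold, and none was a member. B cell markers were at 0.115% and 0.233% of the counts in library 1 of control and Atg5-knockout blood and at most 0.0408% in any other library. B cells are known to express Hvcn1, and these 2 libraries had 59.8 and 47.1 CPM, the middle and the lowest value of their groups. The control library also held the red cell transcripts, and the part of B cells in the level of Hvcn1 was not tested. With both blood libraries numbered 1 left out, Cybb differed by 0.52 and Hvcn1 by 0.30 on the log2 scale, with adjusted p-values of 0.872 and 0.894.

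An interaction term tested whether the knockout effect in blood differed from that in bone marrow over the 12 libraries, and 0 of the 6 genes passed, as did 0 of all 14712 genes (740 had an unadjusted p under 0.05, and DESeq2 called 11). Hvcn1 had the largest estimate, 0.51 on the log2 scale with a 95% interval from -0.20 to 1.22 (adjusted p = 0.942), from a log2 fold change of -0.42 in bone marrow and 0.14 in blood. The other 5 estimates lay between -0.11 for Ncf4 and 0.13 for Cyba. Without control blood library 1 they lay between -0.20 for Rac2 and 0.38 for Cybb, that of Cyba turned to -0.094 and that of Hvcn1 was 0.45.

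**Figure D3:**
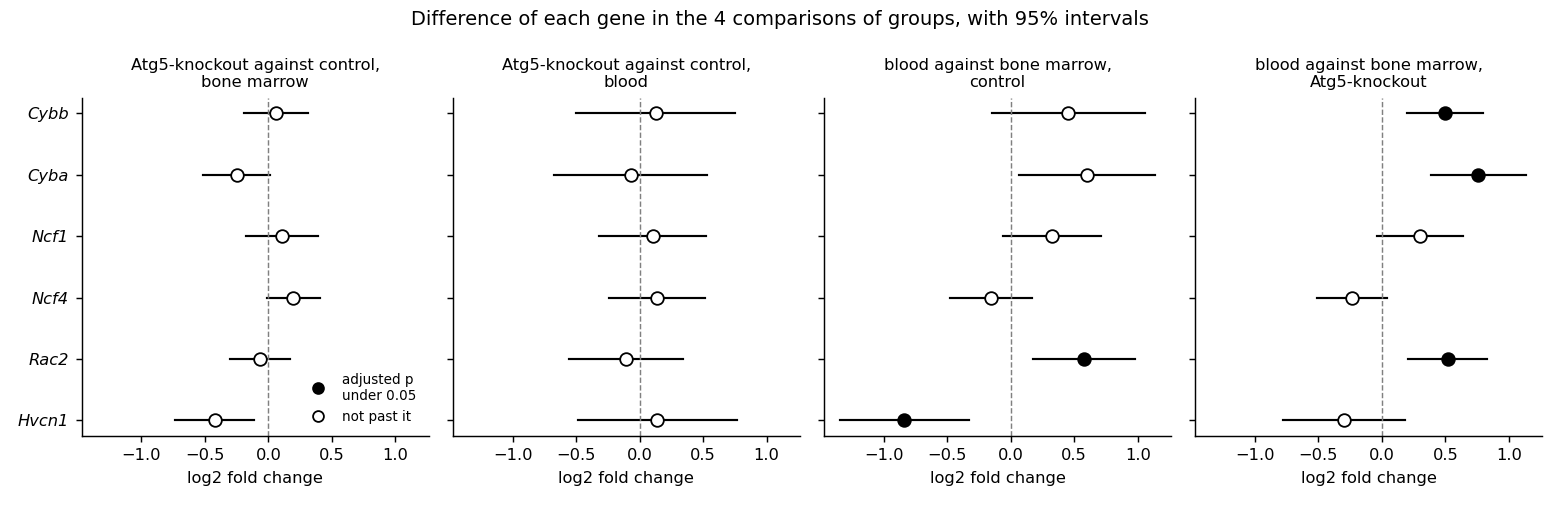
Log2 fold change (point) with its 95% interval (line) for the 6 genes in the 4 comparisons of groups, with filled points for an adjusted p under 0.05. All points of both knockout comparisons are open, and filled points appear for Rac2 in both tissue comparisons, for Hvcn1 in control eosinophils and for Cybb and Cyba in Atg5-knockout eosinophils.

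Larger differences were found between tissues. In control eosinophils 2 of the 6 genes passed the threshold, Rac2 higher and Hvcn1 lower in blood than in bone marrow. This was 33.3% of the 6, where 34.2% of 13669 genes passed it, 16.2% higher and 18% lower. In Atg5-knockout eosinophils Cyba, Cybb and Rac2 passed it, all higher in blood, against 47.6% of 13853 genes (23.5% higher and 24.1% lower). The median log2 fold change of the 6 genes was 0.39 in control and 0.40 in Atg5-knockout eosinophils, and that of all genes tested was -0.0029 and -0.01. The control and Atg5-knockout comparisons share no library. When libraries were scaled by their totals in place of TMM factors, the median of all genes moved to -0.31 and -0.24, so a difference is read here relative to the typical gene. Under that scaling the calls among the 6 became 0 higher and 2 lower (Hvcn1 and Ncf4) in control, and 1 higher (Cyba) and 2 lower (Hvcn1 and Ncf4) in Atg5-knockout eosinophils. Without control blood library 1, 2 were higher (Rac2 and Cyba) and 1 lower (Hvcn1) in control eosinophils.

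Cyba rose in blood in Atg5-knockout eosinophils, where it had 1197, 1639.9 and 1670.2 CPM in blood against 984, 800.0 and 905 CPM in bone marrow. Every blood library was above every bone marrow library, with a log2 fold change of 0.76 (95% interval 0.39 to 1.13, adjusted p = 0.0049), and the call held under every alternative run. In control eosinophils, blood library 1 at 1069 CPM fell within the bone marrow range of 962 to 1170.4 CPM, and the libraries at 1821 and 1902 CPM lay above it. The log2 fold change there was 0.60 (interval 0.06 to 1.14, adjusted p = 0.0801), and 0.83 (adjusted p = 0.0009) without library 1.

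Cybb, its partner in the membrane, had 1011, 982 and 1181 CPM in Atg5-knockout blood against 696, 794 and 786 CPM in bone marrow, with no overlap and a log2 fold change of 0.49 (95% interval 0.19 to 0.80, adjusted p = 0.0137). Without Atg5-knockout bone marrow library 1 the adjusted p was 0.0819, in the fit of all 12 libraries it was 0.0941, and with scaling by library totals it was 0.0966 at a log2 fold change of 0.26. In control eosinophils the blood libraries at 808 and 713 CPM lay in or near the bone marrow range of 622 to 771 CPM, and library 1 at 1425 CPM gave most of the log2 fold change of 0.45 (interval -0.15 to 1.05, adjusted p = 0.218). Without that library it was 0.09 (adjusted p = 0.652). The library rich in red cell transcripts was thus the highest in Cybb and the lowest in Cyba among the 3. It was also the highest in summed B cell, T and NK cell, platelet, monocyte and dividing cell markers. In summed eosinophil and neutrophil markers it was the lowest. Leaving only the red cell genes out of the counts gave 0.47 for Cybb and 0.62 for Cyba. The part of the other RNA of that library in these values was not tested.

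Among cytosolic subunits, Ncf1 and Ncf4 did not pass the threshold in either genotype. Ncf1 was higher in every blood library of both genotypes, at 959 to 1247 CPM against 800.1 to 926 CPM in control and at 1116 to 1260.3 CPM against 787 to 1061 CPM in Atg5-knockout eosinophils. The log2 fold changes were 0.32 (95% interval -0.06 to 0.71, adjusted p = 0.174) and 0.30 (interval -0.04 to 0.64, adjusted p = 0.132). Ncf4 was lower in every blood library of both genotypes, at 144 to 164 CPM against 165 to 175 CPM in control and at 148 to 186 CPM against 198 to 202 CPM in Atg5-knockout eosinophils. Its log2 fold changes were -0.15 (interval -0.48 to 0.17, adjusted p = 0.437) and -0.24 (interval -0.51 to 0.04, adjusted p = 0.144), and it was called lower in both genotypes when libraries were scaled by their totals (adjusted p = 0.0368 and 0.0187). Without control blood library 1 the log2 fold changes in control eosinophils were 0.32 for Ncf1 (adjusted p = 0.106) and -0.19 for Ncf4 (adjusted p = 0.293). Over all genes, the groups did not overlap for 50.1% in control and 60% in Atg5-knockout eosinophils, against 4 and 5 of the 6 genes here.

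Rac2 had 1623, 1976 and 2203 CPM in control blood and 1352, 1296 and 1209.9 CPM in control bone marrow, a log2 fold change of 0.58 (95% interval 0.17 to 0.98, adjusted p = 0.0345). In Atg5-knockout eosinophils it had 1669.8, 1969 and 1685 against 1258, 1136 and 1363 CPM, a log2 fold change of 0.52 (interval 0.21 to 0.83, adjusted p = 0.0131). Blood was above bone marrow in every library of both genotypes. The call in control eosinophils was marginal: leaving out any one of control blood 2, control blood 3 or the 3 control bone marrow libraries gave adjusted p-values of 0.0818 to 0.166, while leaving out control blood 1 gave 0.0015. The blood and bone marrow libraries may come from the same mice, but the numbers of the libraries are not tied to animals and did not deviate together between tissues. With the number as a block, the adjusted p of Rac2 in control eosinophils was 0.0705. In Atg5-knockout eosinophils its call was lost without blood library 2 (0.0553), bone marrow library 1 (0.0621) or bone marrow library 2 (0.0746). Scaling by library totals lost the call of Rac2 in both genotypes, with log2 fold changes of 0.27 in control (adjusted p = 0.271) and 0.29 in Atg5-knockout eosinophils (adjusted p = 0.0695), and the fit with no filter lost it in control (adjusted p = 0.109).

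Hvcn1 went in the opposite direction to Rac2. In control eosinophils it had 59.8, 83.8 and 52.5 CPM in blood against 103, 143 and 102 CPM in bone marrow, a fall by 0.84 on the log2 scale (95% interval -1.35 to -0.33, adjusted p = 0.0200), to 0.559 of the bone marrow level. All blood libraries were below all bone marrow libraries. The call was lost without control blood library 3 (-0.69, adjusted p = 0.0576) or control bone marrow library 2 (-0.67, adjusted p = 0.0861), and held without control blood library 1 (-0.77, adjusted p = 0.0232). In Atg5-knockout eosinophils it had 47.1, 77.7 and 88.6 CPM in blood against 92.0, 79.6 and 93.6 CPM in bone marrow, and the groups overlapped (log2 fold change -0.30, interval -0.78 to 0.18, adjusted p = 0.271). With scaling by library totals it was called lower there too (-0.55, adjusted p = 0.0314). That the fall passed the threshold with TMM factors in one genotype alone does not show a difference between genotypes, since the interaction of Hvcn1 given above was not past the threshold.

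Neutrophils and monocytes also express the oxidase, so their markers are given beside the tissue comparisons. All 12 neutrophil markers were detected in every group and took 1.50 to 1.94% of the counts in bone marrow and 0.994 to 1.23% in blood. The most abundant were Ngp in bone marrow (5003 CPM in control) and Retnlg in blood (6676 CPM in control). All 12 monocyte and macrophage markers took 0.132 to 0.153% in bone marrow and 0.134 to 0.178% in blood, but single markers went both ways. Csf1r, Adgre4 and Cx3cr1 were higher in every blood library than in every bone marrow library of both genotypes, with means of 274 and 877 CPM for Csf1r and 208 and 459 CPM for Adgre4 in control bone marrow and blood. F13a1 and Vcam1 were lower, with means of 474 and 190 CPM and of 169 and 14.7 CPM. The 10 B cell markers took 0.0379 to 0.0408% in bone marrow and 0.0156 to 0.233% in blood. The 10 markers of T and NK cells took 0.00933 to 0.0131% in bone marrow, where Cd3e was at 0, and 0.0103 to 0.0416% in blood. All 10 B cell markers had a higher mean in blood in both genotypes, with every blood library above for 2 in control and 4 in Atg5-knockout. For T and NK cells the mean was higher for 10 markers in control and 9 in Atg5-knockout, with every blood library above for 6 and 8. The 10 platelet markers took 0.0169 to 0.0238% in bone marrow and 0.00695 to 0.0365% in blood. Itga2b made up 95.7% of that sum in control and 93.7% in Atg5-knockout bone marrow. In each genotype 9 of the 10 platelet markers had a higher mean in blood. All blood libraries were above for 9 of them in control and for 6 in Atg5-knockout eosinophils, where they were all below for 1. The 10 markers of dividing cells took 0.185 to 0.257% in bone marrow and 0.00568 to 0.0168% in blood. Rac2 was higher in blood in both genotypes. The summed eosinophil, neutrophil and dividing cell lists were lower there, while most B cell, T and NK cell and platelet markers had higher means. Some markers of the first 2 lists went with Rac2, since the eosinophil receptors Siglecf (442 and 850.5 CPM in control bone marrow and blood) and Ccr3 (992 and 1576 CPM) and the neutrophil gene Mmp9 (409 and 645 CPM) were higher in every blood library of both genotypes. The part of these cells and of monocytes in the differences was not tested. In these bulk samples fewer cells of a type and less RNA per cell cannot be told apart.

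Ratios of RPKM between genes of the complex were also taken, and of those given only Ncf1 per Ncf4 kept the tissues apart. Ncf1 per Ncf4 was 2.67 to 2.92 in control bone marrow and 3.66 to 4.35 in control blood, and 2.14 to 2.95 and 3.59 to 4.26 in Atg5-knockout eosinophils. The tissues did not overlap in either genotype. This follows from the values given above, since Ncf1 was higher and Ncf4 lower in every blood library, and it is no further result. These ratios are descriptions without a test of their own, and the share of other gene pairs that keep the tissues apart was not counted.

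Cyba per Cybb, the pair that forms the heterodimer, was 8.65, 8.49 and 7.53 in control bone marrow and 7.91, 5.63 and 6.44 in Atg5-knockout bone marrow. In blood it spread most, with 4.19, 12.6 and 14.9 in control and 6.62, 9.33 and 7.91 in Atg5-knockout libraries. The lowest of all 12 values, 4.19, was that of control blood library 1. Ncf1 per Cybb, the ratio of organiser to catalytic subunit, stayed between 1.79 and 2.14 in bone marrow and ran from 1.24 to 2.45 in blood, where the lowest value was again that of control library 1.

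**Figure D4:**
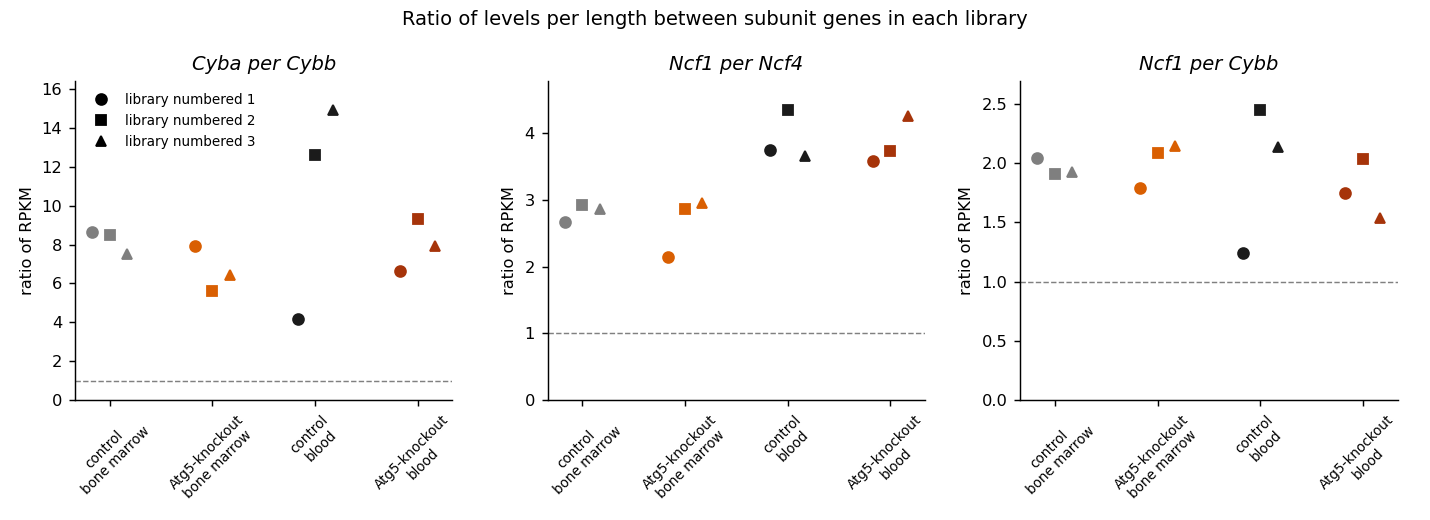
Ratio of RPKM between pairs of subunit genes in each of the 12 libraries, by group and replicate number, with a dashed line at equal levels. Ncf1 per Ncf4 lies at 2.14 to 2.95 in bone marrow and at 3.59 to 4.35 in blood, and Cyba per Cybb spreads from 4.19 to 14.9 in control blood.

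The rest of the oxidase family was mostly silent. Nox3, Nox4, Duox2, Duoxa1 and Duoxa2 had 0 counts in the 12 libraries, Duox1 had 1, Nox1 had 17, Noxa1 had 22 and Noxo1 had 54, and none passed the filter on low counts. Of the other partners, 3 were tested, and 0 was called in either knockout comparison. Cybc1, which helps the heterodimer fold in the endoplasmic reticulum, had 169, 119 and 115 CPM in control bone marrow and 41.6, 67.8 and 51.0 CPM in control blood. It was lower in blood by 1.34 in control (-1.34, standard error 0.23, adjusted p = 0.0028) and by 0.85 in Atg5-knockout eosinophils (-0.85, standard error 0.19, adjusted p = 0.0061), against the direction of Cyba. Rac1, the Rac protein of most tissues, had 265, 272 and 243 CPM in control and 235, 220.3 and 249.6 CPM in Atg5-knockout bone marrow. It rose in blood in Atg5-knockout eosinophils (log2 fold change 0.44, adjusted p = 0.0193, and not called with scaling by library totals, 0.21, adjusted p = 0.120), to 277, 323 and 346 CPM, and its 0.23 in control eosinophils (-0.076 with scaling by library totals) was not called. Rap1a, a GTPase found with the heterodimer, was called in neither.

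Of 24 tested genes that act upstream of assembly (kinases, lipases, exchange factors and inhibitors of GTPases), 9 were higher and 1 lower in control blood, and 12 were higher and 3 lower in Atg5-knockout blood, against 34.2% and 47.6% of all genes called. Their median log2 fold changes were 0.33 and 0.32. With libraries scaled by their totals the splits became 4 higher and 4 lower in control and 7 higher and 6 lower in Atg5-knockout eosinophils. Without control blood library 1, 11 were higher and 2 lower in control. Pik3r5, the regulatory subunit of PI3Kγ, rose from 72.5, 52.7 and 54.2 CPM in control bone marrow to 143, 193 and 126 CPM in control blood (log2 fold change 1.36, adjusted p = 0.0018), and by 1.73 in Atg5-knockout eosinophils. Prex1 and Dock2, exchange factors that load Rac with GTP, rose by 0.99 and 1.22 in control and by 0.89 and 0.77 in Atg5-knockout eosinophils. In both knockout comparisons 0 of these 24 genes was called.

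Of 12 tested genes for peroxidases and for removal of superoxide and peroxide, 2 were higher and 4 lower in control blood, and 3 were higher and 4 lower in Atg5-knockout blood, against the same 34.2% and 47.6% of all genes called. With scaling by library totals these became 0 higher and 4 lower in control and 3 higher and 5 lower in Atg5-knockout eosinophils, and without control blood library 1, 5 were higher and 4 lower in control. The members that fell most were granule and secreted enzymes. Mpo, the peroxidase of neutrophil precursors, fell in both genotypes (log2 fold changes -7.20 in control and -7.63 in Atg5-knockout eosinophils), from 1025, 1238 and 1198 CPM to 9.27, 5.76 and 8.84 CPM in control. Epx, the peroxidase of eosinophil granules, fell in both genotypes (-2.70 and -3.57). It had 5140.3, 3350.3 and 3603 CPM in control bone marrow and 461, 467 and 946 CPM in control blood, in animals where the Cre sits in one of its copies. Gpx3, a secreted glutathione peroxidase, stood at 7.87 to 8.22 CPM in control bone marrow and at 1.10 to 1.94 CPM in blood (log2 fold change -2.47, adjusted p = 0.0006). Catalase (Cat) and the peroxiredoxin Prdx6 were called higher in blood in both genotypes, but with scaling by library totals neither was called in control eosinophils (adjusted p = 0.1001 and 0.0840). Of 3 tested enzymes that make cytosolic NADPH, Idh1 was called lower in Atg5-knockout blood (log2 fold change -0.63, adjusted p = 0.0024), and 0 in control blood, where Idh1 was called lower without library 1 (-0.77, adjusted p = 0.0370) and with scaling by library totals (-1.01, adjusted p = 0.0156). In the knockout comparisons 0 genes of either list were called.

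Among transcription factors known to act on oxidase genes or in eosinophil development, 13 were tested between tissues, with 3 higher and 3 lower in control blood and 5 higher and 4 lower in Atg5-knockout blood, where 34.2% and 47.6% of all genes were called. With scaling by library totals these became 2 higher and 6 lower in control and 4 higher and 5 lower in Atg5-knockout eosinophils, and without control blood library 1, 3 were higher and 4 lower in control. Spi1, which encodes PU.1, an activator of Cybb and Ncf1, had 500.3, 452 and 420.3 CPM in control bone marrow and 756, 1035 and 1084 CPM in control blood (log2 fold change 1.06, adjusted p = 0.0032), and rose by 0.89 in Atg5-knockout eosinophils (adjusted p = 0.0005). Gata2, a factor of progenitors, was lower in blood by 1.07 and 0.77 (-1.07 and -0.77). Cebpb rose by 3.02 and 4.27, from 48.7, 75.9 and 43.3 CPM to 445, 503 and 423 CPM in control eosinophils. Hoxa9, which is active in myeloid progenitors, fell in both genotypes (-4.35 and -4.68) from a level of 1.86 to 4.07 CPM in control bone marrow. In bone marrow 0 of 14 and in blood 0 of 12 tested factors were called between genotypes. The calls of Cybc1, Pik3r5, Prex1, Dock2, Mpo, Epx, Gpx3, Cat, Prdx6, Spi1, Gata2, Cebpb and Hoxa9 between tissues in control eosinophils held without control blood library 1, with log2 fold changes from -7.32 for Mpo to 3.04 for Cebpb.

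**Figure D5:**
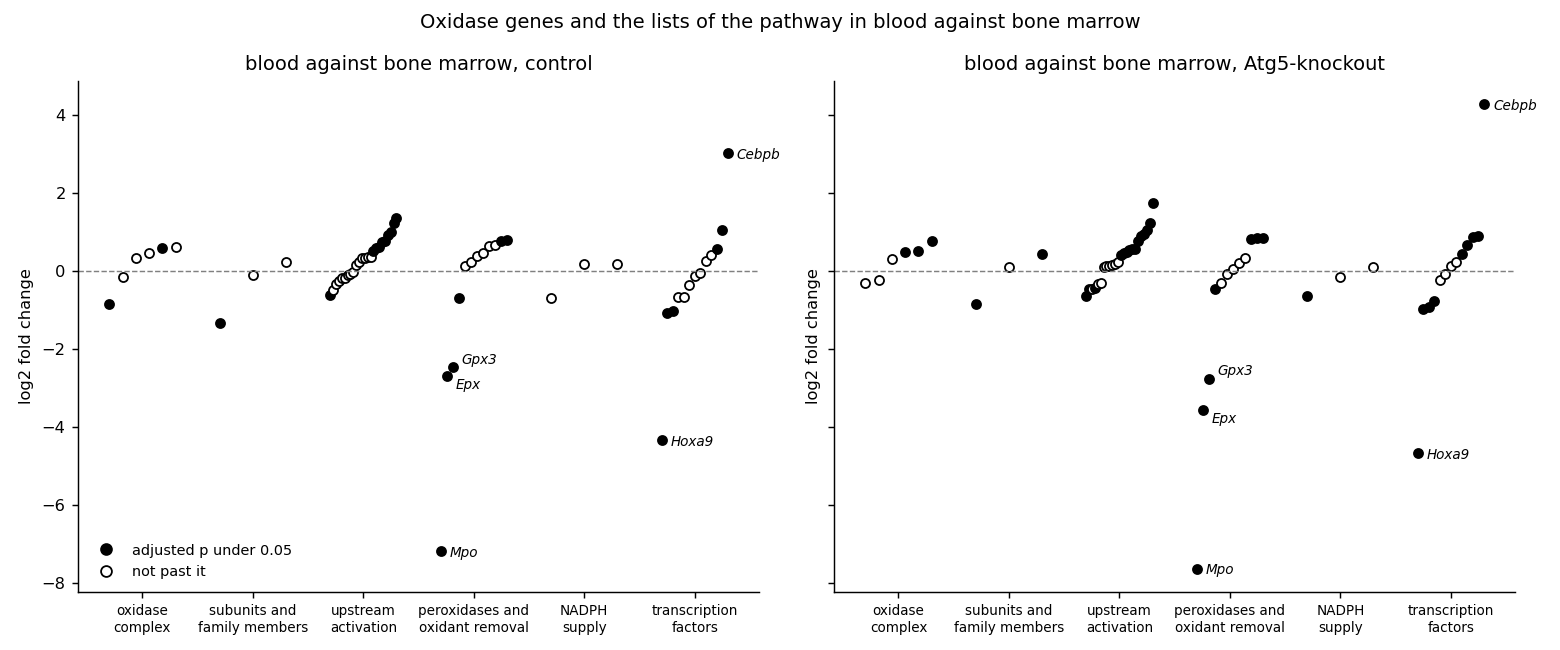
Log2 fold change of blood against bone marrow for the 6 oxidase genes and the tested genes of 5 lists of the pathway, 1 point for each gene, filled for an adjusted p under 0.05, in control (left) and Atg5-knockout (right) eosinophils. The oxidase genes lie between -0.84 and 0.76, while Mpo, Epx, Gpx3, Hoxa9 and Cebpb lie beyond 2 in either direction.

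To describe which genes had a pattern like that of each oxidase gene, the distance between log2 levels, each centred on its mean over the 12 libraries, was taken as a root mean square. The nearest of the 14712 tested genes to Cyba were Txndc17, Atp6v0b and Rabac1, the first at a distance of 0.05, where the median gene was at 0.50. Nearest to Rac2 were Fes (0.06), Gnai2 and Capg, with a median of 0.41. For Cybb they were Zfp292 (0.11), Etaa1os and Sp110-ps2, and for Ncf1 they were Btrc (0.11), Epha1 and Mapkbp1. Ncf4 was nearest to Padi1 (0.08), Gm47232 and Letmd1, and Hvcn1 to Rnf144b (0.15), Gm44154 and Ubash3b. The 12 libraries cover both tissues, so genes with a like difference between tissues lie near each other. What a small distance means was not tested.

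Among the 6 genes themselves, the closest pair was Cyba and Rac2, at a distance of 0.19. This was rank 319 of all genes as seen from Cyba and rank 722 as seen from Rac2. Cybb was nearest to Ncf1, at 0.24, and lay 0.47 from its membrane partner Cyba. That pair was at rank 6321 of 14712 as seen from Cyba and at rank 8224 as seen from Cybb, where the median gene was at 0.44. Hvcn1 lay 0.40 from Ncf4, at rank 3302 as seen from Hvcn1, where the median gene was at 0.50. The remaining 4 lay beyond that median, at 0.54 to 0.67 from Hvcn1. Each of these distances covers the same 12 libraries, and control blood library 1 weighs on those of Cybb and Cyba.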

How the data were processed

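RNA from eosinophils of bone marrow and blood was sequenced as 12 libraries, 3 for each genotype and tissue. Stranded mRNA libraries were read as single ends and aligned with HISAT2 2.2.1. The authors deposited raw read counts per gene, with no normalization or filter. The table header gives featureCounts 2.0.1 with Ensembl release 92 on GRCm38, whereas the Methods name GRCm39, and the header gives no strand option, so exon bases shared by genes on opposite strands lose their reads. Alignment was not repeated, and depth was 18885052 to 30270166 counts per library.

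Counts were fitted with edgeR 4.0.16 in R 4.3.3 (quasi-likelihood test, TMM factors, filter with minimum count 10 and minimum total 15, prior count 0.125, Benjamini-Hochberg adjustment over all genes tested, call at an adjusted p under 0.05). Each comparison of groups used its own 6 libraries, and the interaction used all 12. Of the identifiers, 49674 matched a symbol in GENCODE M39, used for symbols only. Levels in CPM used TMM factors over the 12 libraries, and RPKM divides them by exon length. Intervals of 95% come from the fit. Promoter sequences are from RefSeq on GRCm38.p6. The fits were also run on simulated counts, with no pairing and with changes larger than the main estimates of the 6 genes. That run does not show how well changes of their size are found.

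The 6 genes, the lists of the pathway and the markers were chosen with earlier results of these data known. Named were the 6 genes, the 3 genes of lowest p among those called in each list and comparison, the 3 genes nearest to each of the 6 (pseudocount 2 CPM) and the top gene of a marker list, except for some genes that are not reported here. The other genes named, namely Rap1a, Nox and Duox family genes, Cat, Prdx6, Gata2, Cd3e, Csf1r, Adgre4, Cx3cr1, F13a1, Vcam1, Siglecf, Ccr3, Mmp9 and Atg5, come from the lists and were picked with their values known, or serve as checks.

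Alternatives were DESeq2 1.42.0, limma-voom (limma 3.58.1), other scaling, no filter, no red cell genes, the replicate number as a block, all 12 libraries and each library left out. Blood libraries of one number deviated together between genotypes (correlations 0.50, 0.21 and 0.30), so the numbers pair them. They did not in bone marrow (-0.15, -0.11 and 0.0041) or between tissues (0.12, 0.13 and -0.041 in control, -0.11, -0.057 and 0.043 in Atg5-knockout). The labels do not say what the numbers share, and the libraries are taken as separate animals.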

Additional observations from a re-analysis of the deposited data

How the results depend on the processing

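Depth did not limit the 6 genes, whose lowest count in any library was 981 (Hvcn1). With 3 libraries a group the spread between libraries set the limit, most of all in blood. Of 462 refits of the 6 genes, 412 kept direction and side of the threshold, 17 lost a call, 7 gained one and 26 changed sign, all of the last in comparisons of genotype or in the interaction and around values near 0. The cause of each change was not tested.

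Counts of genes called moved with the tool. DESeq2 called 192 genes between genotypes in bone marrow, 23 in blood and 11 for the interaction. Without the filter these were 420, 77 and 119. The fit of all 12 libraries called 12 in bone marrow and 16 in blood. Leaving out 1 library gave 18 to 219 genes in bone marrow and 2 to 6 in blood between genotypes, and 2627 to 5926 between tissues in control eosinophils. Of the 6 oxidase genes, 1 was called between genotypes in bone marrow without the filter (Hvcn1) and 1 between tissues in control eosinophils. Leaving out 1 library gave 0 to 3 of them between tissues in control and 1 to 3 in Atg5-knockout eosinophils.

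With the replicate number as a block, 23 genes were called between genotypes in bone marrow, where the numbers do not pair the libraries, and 10 in blood, where they do. The block left 1 oxidase gene called between tissues in control eosinophils in place of 2 and changed no other call of the 6 genes.

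Scaling by library totals turned the sign of Cyba between genotypes in blood (0.0070) and, in the interaction, of Ncf1 (0.049), Ncf4 (0.0019) and Rac2 (0.022). No filter turned that of Cybb (-0.0026) in the interaction, and leaving out both blood libraries numbered 1, a setting chosen after the data were seen, that of Ncf1 (0.015). Leaving out 1 library gave -0.032 to 0.13 for Cybb and -0.14 to 0.0040 for Rac2 between genotypes in bone marrow. In blood it gave -0.052 to 0.50 for Cybb, -0.29 to 0.076 for Cyba and -0.055 to 0.36 for Hvcn1. In the interaction it gave -0.17 to 0.38 for Cybb, -0.094 to 0.30 for Cyba, -0.19 to 0.040 for Ncf1 and -0.20 to 0.013 for Rac2. Where a library was left out and 2 remained in its group, the fit pooled the spread over the groups.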
